A study of Mus musculus with 15 samples.

Results

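The 7 genes described here encode the enzymes that build coenzyme A from pantothenate (vitamin B5). They were taken by name as the pantothenate kinases Pank1, Pank2, Pank3 and Pank4 and the later enzymes Ppcs, Ppcdc and Coasy, and each had 1 probe set among the 25206 of the deposited array table. They were chosen by their log2 levels across the 5 groups as well as by name, so those levels and the differences made from them are given as a description, without p-values. Gene expression had been measured on 1-colour Affymetrix arrays, from 2 ng of total RNA per sample, in adipocytes sorted from UCP1/Tomato mice 8 to 10 weeks old. BAT (3 arrays) is UCP1-positive brown adipocytes from the brown fat of untreated mice. CL (3 arrays), RS (2 arrays) and RG (3 arrays) are UCP1-positive adipocytes from inguinal fat of mice given CL316243, which activates the beta-adrenergic receptor of adipocytes, roscovitine, which inhibits cyclin-dependent kinases, or rosiglitazone, which activates the nuclear receptor PPARG. The labels call the RS cells brite and the CL and RG cells beige. WAT (4 arrays) is UCP1-negative white adipocytes from the inguinal fat of untreated mice. All groups carry the same reporter genotype, although the labels write the gate as UCP1(GFP). Another RS array of the study was not analysed here. No dose, treatment time, sex or batch is stated, nor whether arrays came from separate animals, so errors and p-values measure only the spread between these samples, which may be technical. UCP1-positive inguinal cells of untreated mice were not among the samples, so treatment and gate change together in CL, RS and RG against WAT.

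Coenzyme A carries acyl groups into fatty acid oxidation, the citric acid cycle and lipid synthesis, pathways that brown adipocytes run at high rates. Pantothenate kinase makes the first and rate-limiting phosphorylation, and coenzyme A and its thioesters inhibit it in feedback. PPCS then adds cysteine, PPCDC removes a carboxyl group, and COASY, a bifunctional enzyme, completes the molecule. PANK1 and PANK3 work mainly in the cytosol and nucleus, human PANK2 is found in mitochondria, and PANK4 lacks the active kinase of its relatives and acts as a phosphatase.

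RefSeq's table on GRCm38.p6 held windows before the start site for 6 of the 7 genes, 9 windows in all. Pank1, the gene whose group means spread farthest, has 2 start sites, 1538 bases apart on the minus strand of chromosome 19. The 250 bases before each are shown because the arrays give 1 value per gene and do not separate the transcripts that begin at them. Capitals mark TATAAA in the first and CCAAT in the second, on either strand.
Pank1, chr19:34879456-34879705, minus strand: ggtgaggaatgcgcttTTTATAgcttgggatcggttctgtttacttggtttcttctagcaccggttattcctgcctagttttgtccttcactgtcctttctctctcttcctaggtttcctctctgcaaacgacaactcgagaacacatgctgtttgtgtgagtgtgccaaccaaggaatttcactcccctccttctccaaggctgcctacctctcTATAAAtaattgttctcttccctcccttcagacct
Pank1, chr19:34877918-34878167, minus strand: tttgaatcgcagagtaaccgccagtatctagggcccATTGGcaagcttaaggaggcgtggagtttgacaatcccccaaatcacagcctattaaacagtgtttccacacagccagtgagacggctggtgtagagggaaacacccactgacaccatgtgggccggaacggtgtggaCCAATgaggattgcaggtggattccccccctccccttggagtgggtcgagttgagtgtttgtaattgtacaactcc
The first window held TATAAA at 234 and 35 bases before its start site, and the second held CCAAT at 214 and 76 bases before its own. TATAAA stood in 1 of the 9 windows and CCAAT in 5, against 12.4% and 33.8% of 32851 windows of the same length in the table. The nuclear receptor half-site AGGTCA was found in 1 window, that of Ppcs (14.0% of all windows), and the cAMP response element TGACGTCA in 0 (1.55% of all windows). Both strands were searched, no motif contains another, and a match is a description only.

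Introns of Pank genes also hold microRNA genes. Mir107 lies in Pank1, Mir103-2 in Pank2 and Mir103-1 in Pank3. Their main mature products are shown, in RefSeq's sequence, because they share a seed (bases 2 to 8, in capitals).
mmu-miR-107-3p, chr19:34820700-34820722, minus strand: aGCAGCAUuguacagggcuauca
mmu-miR-103-3p, chr2:131288103-131288125 and chr11:35782447-35782469, plus strand: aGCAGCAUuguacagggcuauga
The substitution G22C, counted from the 5′ end with the base of miR-103-3p first, is the only difference between them.

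Pank1 was the member that set the groups apart. On the log2 scale it stood at 7.86, 8.12 and 7.73 on the BAT arrays and at 6.69, 6.56 and 6.93 on the CL arrays. It stood at 5.50 and 5.44 on the RS arrays and at 5.60, 5.45 and 6.10 on the RG arrays. The WAT arrays had 4.79, 4.50, 4.71 and 3.72. The order of the group means was BAT, CL, RG, RS and WAT, with no overlap between neighbours in that order except RG and RS. The mean was 7.90 ± 0.199 in BAT (SD, n = 3), 6.73 ± 0.188 in CL (SD, n = 3), 5.47 in RS (n = 2), 5.72 ± 0.340 in RG (SD, n = 3) and 4.43 ± 0.489 in WAT (SD, n = 4). WAT 4 was the lowest array of all, and the lowest of the other WAT arrays stood at 4.50.

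**Figure D1:**
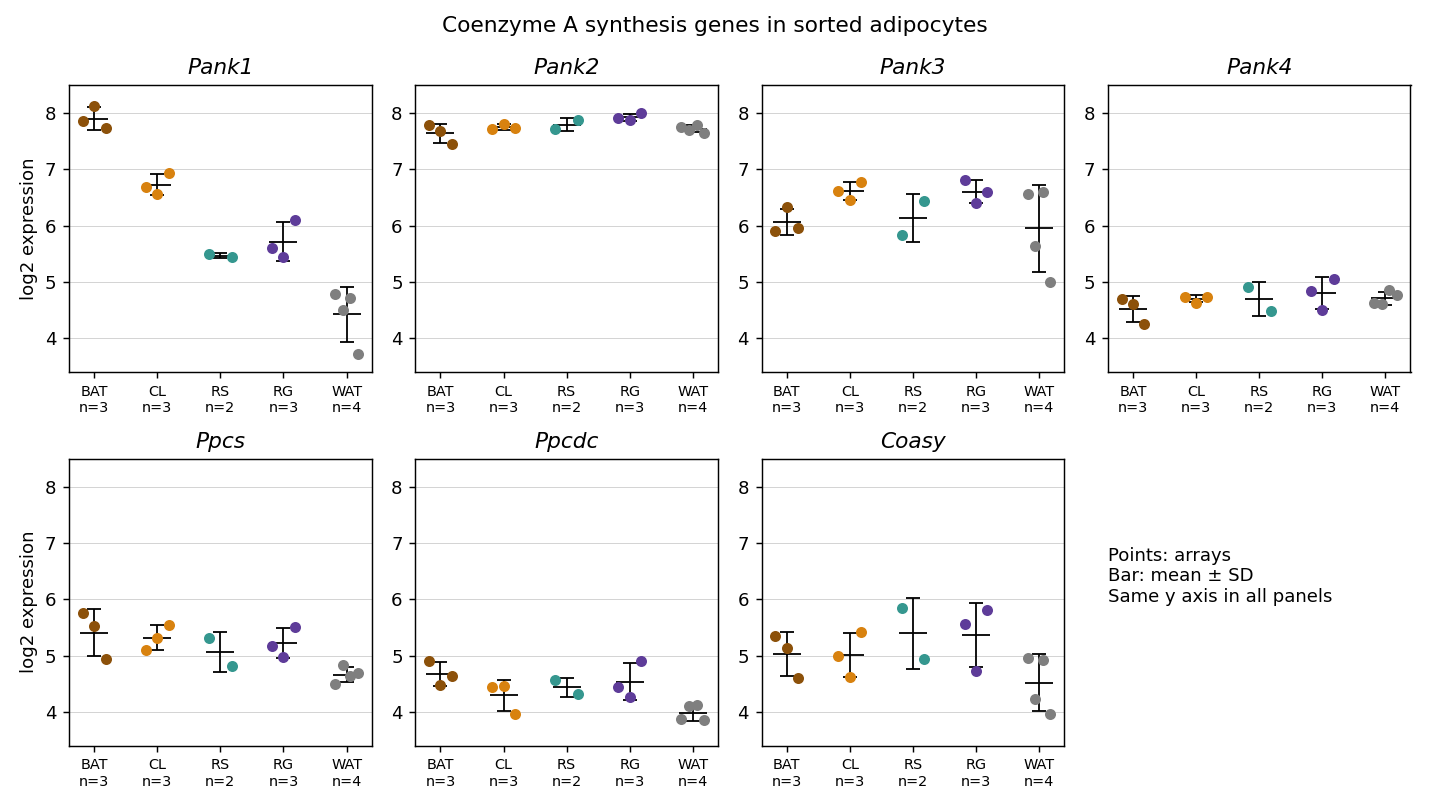
Each panel plots the log2 expression value of 1 coenzyme A synthesis gene on every array, as points by group (BAT, CL, RS, RG, WAT), with a line at each group's mean. Pank1 steps down over the groups, with group means that span 3.47 log2 units, while the means of each of the other genes span 0.88 or less; levels of different panels are not comparable because they come from different probe sets.

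Set against WAT, the Pank1 level in BAT was 11.1-fold higher (a log2 difference of 3.47 ± 0.235, SE, n = 3 and 4) and 4.91-fold higher in CL (2.30 ± 0.235, n = 3 and 4). It was 2.06-fold higher in RS (1.04 ± 0.266, n = 2 and 4) and 2.44-fold higher in RG (1.29 ± 0.235, n = 3 and 4). Every array of those groups lay above every WAT array. The same held for 29.6% of all probe sets in BAT, 23.7% in CL, 28.0% in RS and 19.1% in RG. In bulk RNA of sorted cells, fewer cells expressing a gene and less of its RNA per cell cannot be told apart. Against BAT, Pank1 was lower by 1.18 ± 0.251 log2 units in CL, by 2.43 ± 0.281 in RS and by 2.19 ± 0.251 in RG. Among the treated inguinal groups it was lower in RS than in CL by 1.26 ± 0.281 and higher in CL than in RG by 1.01 ± 0.251. RS and RG differed by -0.25 ± 0.281, less than the standard error of that difference. Leaving out single arrays kept the difference from WAT between 3.24 and 3.59 in BAT and between 0.80 and 1.16 in RS.

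The group means of the other pantothenate kinases spanned 0.67 or less. Pank2 stood at 7.79, 7.68 and 7.45 in BAT, 7.71, 7.81 and 7.74 in CL, 7.71 and 7.88 in RS, 7.91, 7.88 and 8.00 in RG, and 7.76, 7.70, 7.79 and 7.65 in WAT. Its group means spanned 0.29 and its standard deviation within groups was 0.0997, so it was the steadiest member between arrays of a group. Its highest mean was that of RG, with a mean difference from WAT of 0.205 ± 0.131 (SE). Its 3 RG arrays all lay above every WAT array, as did those of 19.1% of all probe sets. In BAT it differed from WAT by -0.085 ± 0.131, and by 0.09 after quantile normalization, which turned the sign.

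Pank3 had 5.91, 6.33 and 5.96 in BAT, 6.61, 6.46 and 6.78 in CL, 5.83 and 6.43 in RS, and 6.82, 6.41 and 6.59 in RG. The WAT arrays had 6.56, 5.64, 6.60 and 5.0, a wider range than any other group, and every other group overlapped them. Its differences from WAT were 0.12 ± 0.312 in BAT, 0.67 ± 0.312 in CL, 0.18 ± 0.354 in RS and 0.66 ± 0.312 in RG. Without WAT 4 they were -0.20 in BAT, 0.35 in CL, -0.14 in RS and 0.34 in RG. Against BAT, Pank3 was higher by 0.55 ± 0.334 in CL and by 0.54 ± 0.334 in RG, opposite to the order of Pank1. All arrays of CL and RG lay above all of BAT. The same held for 2374 of the 25206 probe sets in CL and for 3776 in RG.

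Pank4 had 4.69, 4.61 and 4.26 in BAT, 4.73, 4.63 and 4.74 in CL, 4.91 and 4.48 in RS, 4.84, 4.51 and 5.06 in RG, and 4.62, 4.61, 4.85 and 4.77 in WAT. Its group means spanned 0.28, and each group overlapped WAT. The difference from WAT was -0.19 ± 0.169 in BAT and 0.12 after quantile normalization.

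The later enzymes had higher means in the UCP1-positive groups than in WAT, with differences of 0.31 to 0.88, and Coasy overlapped WAT in each group. Ppcs, the phosphopantothenoylcysteine synthetase, had 5.75, 5.53 and 4.95 in BAT, 5.10, 5.32 and 5.54 in CL, 5.31 and 4.81 in RS, 5.17, 4.98 and 5.51 in RG, and 4.50, 4.83, 4.64 and 4.69 in WAT. The BAT, CL and RG arrays all lay above the WAT arrays, while 1 of the RS arrays (RS 4, at 4.81) lay within their range. Of all probe sets, 29.6% lay wholly above WAT in BAT, 23.7% in CL and 19.1% in RG. The differences from WAT were 0.745 ± 0.206 in BAT, 0.655 ± 0.206 in CL, 0.395 ± 0.233 in RS and 0.555 ± 0.206 in RG.

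Ppcdc, the phosphopantothenoylcysteine decarboxylase, had 4.90, 4.48 and 4.64 in BAT, 4.45, 4.46 and 3.97 in CL, 4.56 and 4.32 in RS, 4.45, 4.27 and 4.90 in RG, and 3.87, 4.10, 4.12 and 3.85 in WAT. All arrays of BAT, RS and RG lay above those of WAT, and CL 4 lay among the WAT arrays. Of all probe sets, 29.6% lay wholly above WAT in BAT, 28.0% in RS and 19.1% in RG. The differences from WAT were 0.69 ± 0.185 in BAT, 0.31 ± 0.185 in CL, 0.455 ± 0.210 in RS and 0.555 ± 0.185 in RG.

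Coasy, the coenzyme A synthase, had 5.35, 5.14 and 4.60 in BAT, 4.99, 4.63 and 5.42 in CL, 5.84 and 4.95 in RS, 5.56, 4.72 and 5.81 in RG, and 4.96, 4.23, 4.93 and 3.96 in WAT. It was the member with the widest spread within groups (SD 0.492), and each group overlapped WAT. Its differences from WAT were 0.51 ± 0.324 in BAT, 0.49 ± 0.324 in CL, 0.875 ± 0.368 in RS and 0.84 ± 0.324 in RG. Its order (RS, RG, BAT, CL, WAT) is thus unlike that of Pank1, but all neighbours in it overlap. In RS it varied with the array kept: its difference from BAT, 0.365 with both, was 0.81 without RS 4 and -0.08 without RS 3. The difference from WAT was 1.32 without RS 4. It was 0.24 without both RS 3 and WAT 4, which was its lowest array (3.96), so that value does not show the part of RS 3 alone.

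**Figure D2:**
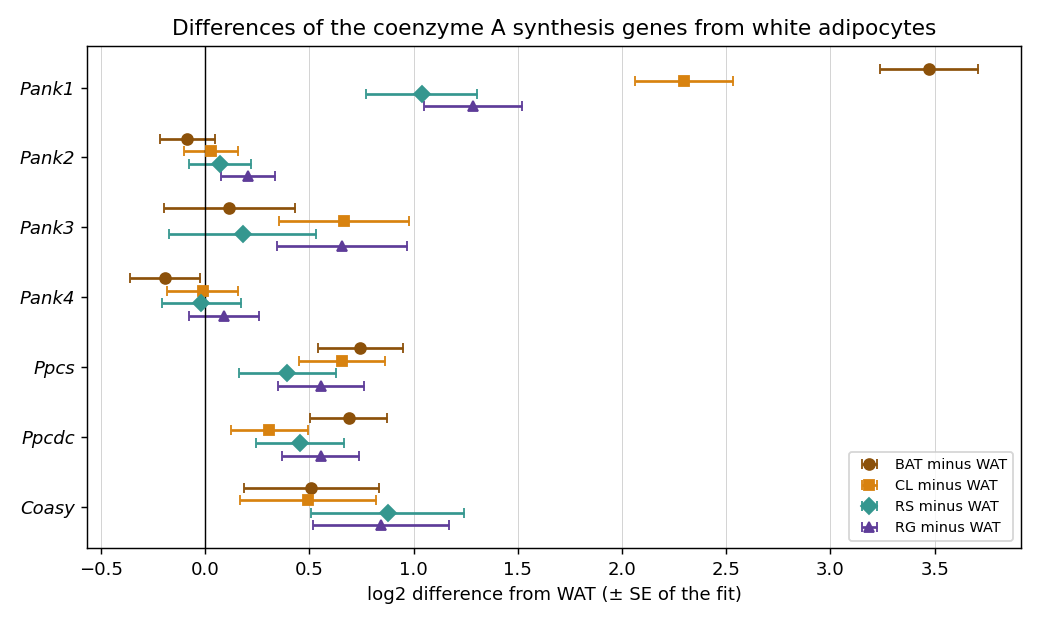
Points give the log2 difference from WAT of each coenzyme A synthesis gene in BAT, CL, RS and RG, with bars of 1 standard error of the fit. Pank1 lies between 1.04 and 3.47 in the 4 groups and no other gene exceeds 0.88.

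At an adjusted p under 0.05 the fit called 3 of the 7 genes in BAT against WAT (Pank1, Ppcs and Ppcdc, all higher), where it called 44.0% of all probe sets, 27.6% as higher and 16.4% as lower. In CL it called Pank1 and Ppcs, 2 of 7, both higher, with 25.2% of all probe sets called, 15.2% higher and 9.97% lower. In RS it called Pank1 alone, 1 of 7, with 21.4% of all probe sets called, 11.1% higher and 10.3% lower. In RG it also called Pank1 alone, with 11.4% of all probe sets called, 5.19% higher and 6.24% lower. Pank1 was also the 1 member called in CL against BAT (2.05% of all probe sets), RS against BAT (3.67%), RG against BAT (14.3%), RS against CL (1.27%) and CL against RG (2.87%). RS against RG had 0 members called by limma, 0 also at an unadjusted p under 0.05, and 0.682% of all probe sets called. Because the members were named for these levels, nothing is read from the counts. Pank1 in RS against WAT was not called without RS 3 (1.01), without RS 4 (1.07) or without both WAT 4 and RS 3 (0.77), and Ppcs in BAT not without BAT 1 (0.575). Ppcs in CL against WAT was not called without WAT 1, WAT 3, WAT 4, CL 3 or CL 4 (0.545 to 0.66). Pank1 in CL against BAT was not called without BAT 1, BAT 3, CL 1 or CL 3 (-1.20 to -1.07). In RS against CL it was not called without any 1 of their 5 arrays (-1.34 to -1.16), and in CL against RG not without CL 1, CL 3, CL 4, RG 2 or RG 3 (0.88 to 1.09).

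Some measures of the arrays moved with the groups. The median difference from WAT over all probe sets was 0.18 in BAT, 0.13 in CL, 0.135 in RS and 0.10 in RG. The 1354 olfactory and vomeronasal receptor probe sets, whose genes work mainly in sensory neurons, had medians of 0.63 in BAT, 0.48 in CL, 0.44 in RS and 0.27 in RG. The differences of Ppcs and Ppcdc in BAT are of that size. Those of Coasy in BAT (0.51) and CL (0.49), and of Ppcs (0.395) and Ppcdc (0.455) in RS, are also near it. Ppcdc in CL (0.31) lay below the receptor median. Among the later enzymes, Ppcs in CL, Coasy in RS and all of them in RG lay above it. After quantile normalization the receptor median in BAT was 0.18, while Ppcs differed by 1.08, Ppcdc by 0.93, Coasy by 0.80 and Pank1 by 3.67. Pank3 differed by 0.45, Pank4 by 0.12 and Pank2 by 0.09. Every member lay above the 95th percentile of the receptor probe sets on all 15 arrays.

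**Figure D3:**
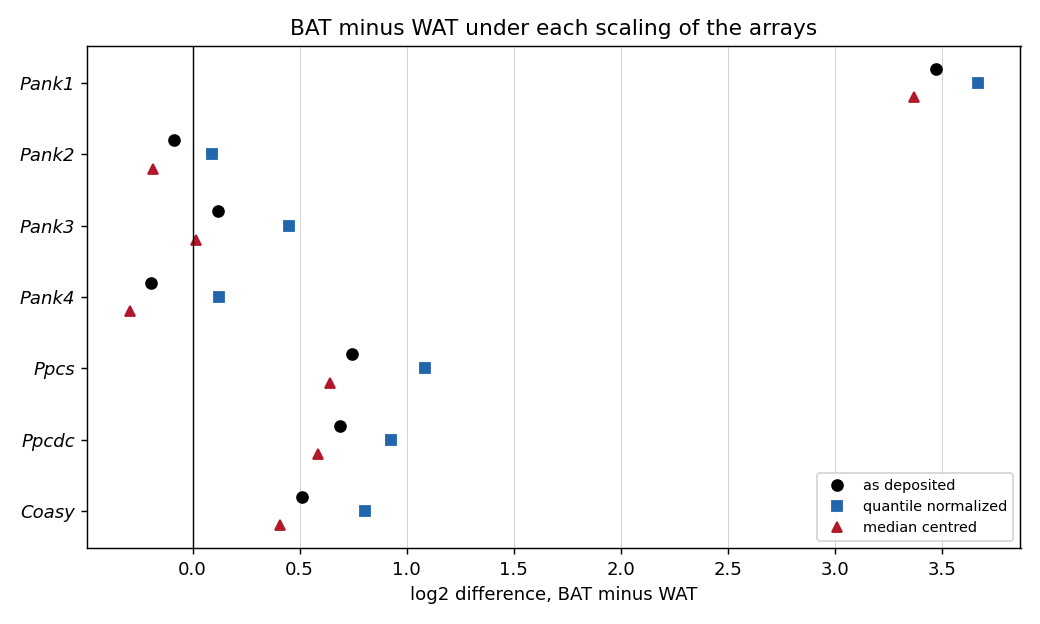
The log2 difference between BAT and WAT of each coenzyme A synthesis gene is plotted under the deposited scale, after centring each array on its median and after quantile normalization. Pank1 stays between 3.24 and 3.67 over all settings run, while Pank2 and Pank4 lie below 0 on the deposited scale and above 0 after quantile normalization.

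Markers of other cell types also moved with the groups. The 9 macrophage markers measured had a mean level of 4.82 to 5.15 in BAT, 4.90 to 5.70 in CL, 4.31 to 4.89 in RS, 4.75 to 5.95 in RG and 7.29 to 8.40 in WAT, and all 9 were lower than WAT in each group. The 9 stromal markers had means of 5.38 to 6.07 in BAT, 5.84 to 7.0 in CL, 4.97 to 6.26 in RS, 6.33 to 7.06 in RG and 7.27 to 9.14 in WAT. The 9 adipocyte markers had means of 9.40 to 9.49 in BAT, 9.48 to 9.91 in CL, 9.69 to 9.96 in RS and 9.88 to 10.2 in RG. They reached 9.40 in WAT but only 7.61 in WAT 4, and defining macrophage markers such as C1qa (8.96 to 9.45) and Adgre1 (5.95 to 7.60) were well measured in WAT. The 9 thermogenic markers had means of 8.30 to 8.90 in BAT, 8.03 to 8.56 in CL, 6.74 to 6.77 in RS, 6.59 to 7.53 in RG and 4.09 to 5.13 in WAT. The 10 endothelial markers had means of 6.08 to 7.08 in BAT, 6.66 to 7.66 in CL, 4.24 (RS 3) and 6.29 (RS 4) in RS, 5.14 to 6.47 in RG and 6.0 to 7.41 in WAT. Limma called 6 of the 10 lower than WAT in RS and 2 in RG. Of the 4 not called in RS, Cldn5 (-1.96), Pecam1 (-1.89) and Emcn (-1.27) were also lower and Vwf (0.20) was higher. The 8 not called in RG differed by -1.47 to -0.003. The 5 lymphocyte markers had means of 3.08 to 3.25 in BAT, 3.62 to 5.02 in CL, 3.05 to 3.67 in RS, 3.60 to 3.86 in RG and 3.55 to 4.76 in WAT. Among them Cd3e was called higher in CL and Ptprc, a marker of all leukocytes, was called lower in each group than in WAT. The part of these cell markers in the levels of the members was not tested.

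Among 5735 genes with a symbol and a mean level above 5, those whose values followed Pank1 most closely over the 15 arrays were Letmd1 (Pearson r = 0.990), Acaa2 (0.984), Ldhb (0.979) and Coq8a (0.977). Letmd1 encodes a protein of the inner mitochondrial membrane, Acaa2 the thiolase that releases acetyl-CoA in mitochondrial fatty acid oxidation, Ldhb a lactate dehydrogenase subunit and Coq8a a protein of coenzyme Q synthesis. Letmd1 averaged 9.59 in BAT, 8.86 in CL, 7.80 in RS, 7.86 in RG and 6.59 in WAT. Ucp1, the gene for which the gate is named, ranked 59th, with r = 0.930. The points share their groups, so these values describe likeness over the groups as well as between arrays. Without the WAT arrays, an alternative added after the data were seen, Letmd1 still ranked 1st (r = 0.986 over 11 arrays), while Acaa2 ranked 3rd, Ldhb 11th and Coq8a 16th. Between members, Pank1 correlated with Ppcs at 0.75, with Ppcdc at 0.65 and with Pank2 at -0.22.

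A further 31 measured genes surround the pathway. They were listed by function, with earlier results of these data known, so their p-values are not free of that choice. They take up pantothenate or recycle it, carry coenzyme A across membranes, degrade it, pass on its phosphopantetheine arm, make acetyl-CoA, bind acyl-CoA, or are the microRNA genes above. Limma called 13 of them higher and 2 lower in BAT than in WAT, and 8 higher and 0 lower in CL. It called 3 higher and 2 lower in RS, and 6 higher and 0 lower in RG. Their median difference was 0.52 in BAT, 0.33 in CL, 0.49 in RS and 0.43 in RG, beside 0.18, 0.13, 0.135 and 0.10 over all probe sets in the same order of groups. The median of the receptor probe sets was above that of these genes in BAT (0.63) and CL (0.48). It was below theirs in RS (0.44) and RG (0.27). The called shares of the surrounding genes were 48.4% in BAT, 25.8% in CL, 16.1% in RS and 19.4% in RG, against 44.0%, 25.2%, 21.4% and 11.4% of all probe sets. By direction, those called higher were 41.9% in BAT, 25.8% in CL, 9.68% in RS and 19.4% in RG, against 27.6%, 15.2%, 11.1% and 5.19% of all probe sets. Those called lower were 6.45% in BAT, 0% in CL, 6.45% in RS and 0% in RG, against 16.4%, 9.97%, 10.3% and 6.24%. No test was made of these shares. Of the calls against WAT, 6 in BAT, 3 in CL, 0 in RS and 0 in RG held under every alternative run. The RS count was 0 without WAT 4 and the RG count 0 without RG 4, where 10 and 12 genes had an unadjusted p under 0.05 by limma. The CL count was 3 without CL 4 and the BAT count 9 without BAT 1. Against BAT, 0 were called higher and 2 lower in CL, 1 higher and 2 lower in RS, and 3 higher and 3 lower in RG. These are shares of 6.45% in CL, 9.68% in RS and 19.4% in RG, against 2.05%, 3.67% and 14.3% of all probe sets. RS against CL and CL against RG each had 1 called lower (3.23%), and RS against RG had 0 (6 at an unadjusted p under 0.05 by limma). Of all probe sets, 1.27%, 2.87% and 0.682% were called in these 3 comparisons, in the same order. Differences between these shares were not tested.

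Ndufab1, the mitochondrial acyl carrier protein that bears a phosphopantetheine arm taken from coenzyme A, had the smallest adjusted p of these genes in BAT and in CL. It had 8.20, 8.36 and 8.09 in BAT, 7.50, 7.97 and 8.14 in CL, 6.65 and 6.62 in RS, 6.97, 7.06 and 7.55 in RG, and 6.27, 6.32, 6.48 and 5.65 in WAT. All groups lay above WAT. It rose by 2.04 ± 0.214 in BAT (limma, adjusted p = 1.72e-05), by 1.69 ± 0.214 in CL (adjusted p = 0.000231) and by 1.01 ± 0.214 in RG (adjusted p = 0.00891, and 0.0575 without RG 4), and in RS the difference was 0.455 ± 0.242 (adjusted p = 0.18). Like Pank1, it was lower than BAT in RS, by 1.58 (adjusted p = 0.0046), and in RG, by 1.02 (adjusted p = 0.0111). In RS it was lower than in CL by 1.24 (adjusted p = 0.0343), a call lost without CL 3, CL 4, RS 3 or RS 4 (0.0706 to 0.11). Mcat, which loads malonyl groups onto that carrier, rose by 0.63 in BAT (adjusted p = 0.0141) and 0.76 in RG (adjusted p = 0.0182). The BAT call was lost without BAT 1 or BAT 3 (0.0533 to 0.0721), and the RG call without WAT 4, RG 2 or RG 4 (0.0551 to 0.0904).

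Of 3 carriers of coenzyme A, limma called 2 higher than WAT in BAT, 3 in CL and 1 in RG. It called 0 in RS, with 1 at an unadjusted p under 0.05. Of all probe sets, 27.6% were called higher in BAT, 15.2% in CL, 11.1% in RS and 5.19% in RG. The same shares stand beside the counts of diphosphatases and acetyl-CoA makers below. Slc25a42, which brings coenzyme A into mitochondria, had 6.53, 6.40 and 5.18 in BAT, 5.93, 5.75 and 6.31 in CL, 4.95 and 4.92 in RS, 4.84, 4.91 and 5.73 in RG, and 4.52, 4.75, 4.71 and 4.15 in WAT. It rose by 1.5 ± 0.298 in BAT (limma, adjusted p = 0.00132) and 1.46 ± 0.298 in CL (adjusted p = 0.00368), and both calls held in all alternatives. In RS it differed by 0.40 (adjusted p = 0.395) and in RG by 0.63 (adjusted p = 0.181), with every array above WAT. Slc25a16, a mitochondrial carrier linked to coenzyme A through its yeast relative, rose by 0.87 in BAT (adjusted p = 0.0147), 0.895 in CL (0.0223) and 1.02 in RG (0.0219). The BAT call was lost without BAT 1 or BAT 3 (0.0511 to 0.0688), the CL call without WAT 4 or CL 4 (0.0529 to 0.0958), and the RG call without RG 2 or RG 4 (0.0706 to 0.1). Slc25a17, a carrier of the peroxisomal membrane, rose by 0.83 in CL (adjusted p = 0.0453), a call lost without any 1 of the 7 arrays compared (0.0538 to 0.122).

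Of 3 diphosphatases that break coenzyme A down, limma called 2 higher than WAT in BAT, 2 in CL, 1 in RS and 1 in RG. Nudt7, the diphosphatase of peroxisomes, had 7.75, 7.74 and 7.29 in BAT, 7.41, 7.35 and 7.87 in CL, 7.25 and 7.13 in RS, 7.17, 6.73 and 7.59 in RG, and 6.54, 5.92, 6.71 and 4.69 in WAT. No UCP1-positive array fell below the highest WAT array. Nudt7 rose by 1.63 ± 0.367 in BAT (limma, adjusted p = 0.00293) and 1.58 ± 0.367 in CL (adjusted p = 0.00747) under all alternatives. In RS it rose by 1.23 ± 0.416 (adjusted p = 0.0476) and in RG by 1.20 ± 0.367 (adjusted p = 0.0466). The RS call was lost without WAT 2, WAT 4, RS 3 or RS 4 (0.0664 to 0.163) and the RG call without WAT 2, WAT 4, RG 2, RG 3 or RG 4 (0.0513 to 0.183). Nudt19, a second peroxisomal diphosphatase, rose by 0.78 in CL (adjusted p = 0.0138, and 0.0622 without CL 4). Nudt8, the diphosphatase of mitochondria, rose by 0.60 in BAT (adjusted p = 0.0339), a call lost without WAT 2, WAT 4, BAT 1 or BAT 3 (0.0899 to 0.126).

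Vnn1 and Vnn3 encode pantetheinases, which return pantothenate from pantetheine, and were each called in several comparisons. Vnn3 had 5.38, 5.10 and 4.86 in BAT, 5.90, 5.85 and 7.05 in CL, 8.30 and 7.06 in RS, 7.45, 6.76 and 7.50 in RG, and 6.85, 5.73, 6.77 and 4.56 in WAT. It was highest in RS and RG and lowest in BAT by group mean, with RS and RG arrays overlapping each other. Against BAT it rose by 2.57 in RS (limma, adjusted p = 0.0247) and 2.12 in RG (adjusted p = 0.0149), and against WAT by 1.70 ± 0.540 in RS (adjusted p = 0.0365). The RS call against WAT was lost without WAT 2, WAT 4 or RS 3 (0.0663 to 0.281), that against BAT without BAT 3, BAT 4 or RS 3 (0.0593 to 0.169), and the RG call without RG 2 or RG 4 (0.0505 to 0.0531).

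Vnn1, the pantetheinase known as a PPARA target in liver, had 2.92, 2.90 and 4.25 in BAT, 3.49, 3.24 and 3.87 in CL, 4.76 and 4.25 in RS, 5.44, 5.32 and 4.77 in RG, and 5.07, 4.04, 5.40 and 3.75 in WAT. It rose in RG against BAT by 1.82 (limma, adjusted p = 0.0124). It fell in BAT against WAT by 1.21 ± 0.391 (adjusted p = 0.0216) and in CL against RG by 1.64 (adjusted p = 0.048). The fall in BAT was lost without WAT 1, WAT 3, BAT 1 or BAT 3 (0.0567 to 0.097), and that in CL without any 1 of the 6 arrays compared (0.0685 to 0.157). On BAT 1, BAT 3, CL 1 and CL 3, Vnn1 lay below the 95th percentile of the receptor probe sets (3.66, 3.54, 3.57 and 3.38). The lower group in each of these comparisons thus lay partly in the range of those receptors. Slc5a6, the transporter that takes up pantothenate, differed from WAT by -0.09 in BAT (adjusted p = 0.762).

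Of the 7 measured makers of acetyl-CoA or acetoacetyl-CoA, limma called 4 higher than WAT in BAT, 1 in CL and 1 in RG. It called 0 in RS, with 2 at an unadjusted p under 0.05 in either direction. Acss1 was the only one of them called in a treated group against BAT. Acss1, the acetyl-CoA synthetase of mitochondria, had 7.36, 6.97 and 7.36 in BAT, 5.97, 6.47 and 6.24 in CL, 5.45 and 5.29 in RS, 5.50, 5.24 and 6.06 in RG, and 5.97, 5.93, 6.13 and 5.79 in WAT. It stood alone in BAT, 1.28 ± 0.195 above WAT (limma, adjusted p = 0.000229), with every other group overlapping WAT except RS, which lay below it (-0.585, adjusted p = 0.0684). Against BAT it fell by 1.00 in CL (adjusted p = 0.0265), by 1.86 in RS (adjusted p = 0.00115) and by 1.63 in RG (adjusted p = 0.000495). The call in CL was lost without BAT 1, BAT 4, CL 1 or CL 4 (0.061 to 0.0895), while those in RS and RG held in all alternatives.

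Acat1, the acetoacetyl-CoA thiolase of mitochondria, rose by 1.00 in BAT (adjusted p = 0.00231), 0.84 in CL (0.0126, and 0.0589 without CL 4) and 0.78 in RG (limma, adjusted p = 0.0309). The RG call was lost without WAT 2, WAT 4, RG 2, RG 3 or RG 4 (0.0505 to 0.135). In BAT, Acly, which makes acetyl-CoA from citrate, rose by 1.16 (adjusted p = 0.0195), Aacs by 1.00 (adjusted p = 0.0269) and Fasn, the fatty acid synthase, by 0.82 (adjusted p = 0.0476). Each of these 3 calls was lost without WAT 2, without WAT 4 or without BAT 4, with adjusted p-values over all such losses between 0.0501 and 0.131; those of Aacs and Fasn were also lost without BAT 1 or BAT 3.

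Dcakd, a relative of the last kinase of the pathway, fell by 0.93 ± 0.207 in BAT (limma, adjusted p = 0.00278), with 5.53, 5.29 and 4.88 in BAT against 5.91, 5.90, 6.14 and 6.69 in WAT. In RS it fell by 0.71 (adjusted p = 0.0428), a call lost without WAT 3, WAT 4, RS 3 or RS 4 (0.0658 to 0.188). Aasdhppt, the transferase of the phosphopantetheine arm, fell by 0.61 in RS (adjusted p = 0.0489), a call lost without RS 4 or any 1 WAT array (0.053 to 0.399). The value of Aasdhppt on RS 4, 3.52, lay below the 95th percentile of the receptor probe sets on that array, 3.66. Acbd4, an acyl-CoA binding protein, rose by 0.85 in CL (adjusted p = 0.0292), 0.93 in RS (adjusted p = 0.0387) and 1.04 in RG (adjusted p = 0.0216). All 3 of these calls were lost without WAT 2, those in CL and RS also without WAT 4, and each without some arrays of its own group (0.0512 to 0.166 over all such losses). It was higher in RG than in BAT by 0.90 (adjusted p = 0.0459), a call lost without any 1 of the 6 arrays compared (0.0578 to 0.139). Aldh1l2, a mitochondrial enzyme that carries the phosphopantetheine arm, was called higher in BAT by 0.57 (adjusted p = 0.0273, and 0.0555 to 0.0946 without WAT 2, BAT 1 or BAT 4), with values within the range of the receptor probe sets on all arrays.

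The microRNA genes had values too close to those of the receptor probe sets to be set beside their hosts. Mir107, inside Pank1, had 2.87, 3.98 and 3.52 in BAT, 3.49, 2.84 and 3.62 in CL, 3.23 and 3.45 in RS, 3.71, 3.64 and 3.21 in RG, and 3.72, 3.28, 2.83 and 3.42 in WAT, and it passed the receptor percentile on 7 of 15 arrays. Mir103-2, inside Pank2, was called higher in BAT by 1.17 (limma, adjusted p = 0.00417, and 0.0635 after quantile normalization). Against BAT it was lower by 1.38 in RG (adjusted p = 0.00936) and by 1.34 in CL (adjusted p = 0.0339), the CL call being lost without BAT 1, BAT 4, CL 1, CL 3 or CL 4 (0.06 to 0.113). It and Mir103-1, inside Pank3 (1.43 to 2.79 over all arrays), exceeded the receptor percentile on 0 of 15 arrays, so their values lie in the range of those receptors. The arrays read RNA of the gene's locus, and levels of the mature sequences shown above were not analysed here.

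**Figure D4:**
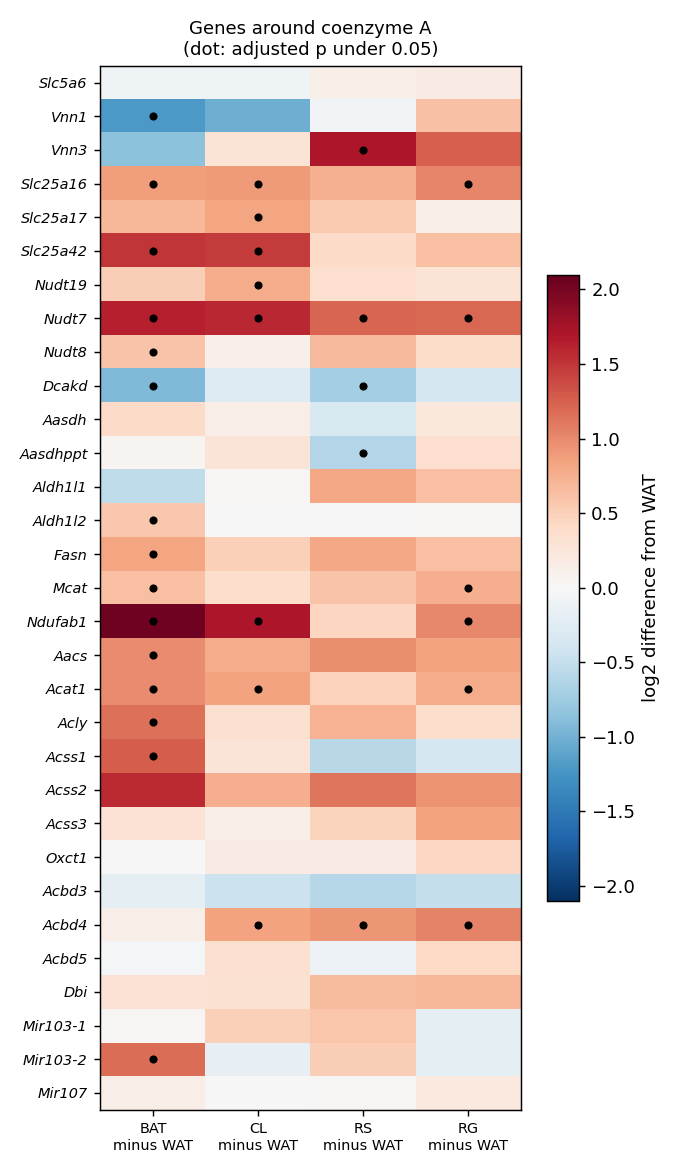
The log2 difference from WAT is drawn as a colour for each of the 31 surrounding genes (rows) in BAT, CL, RS and RG (columns). A dot marks each limma adjusted p under 0.05. Dots number 15 in BAT, 8 in CL, 5 in RS and 6 in RG, and the difference farthest from 0 is that of Ndufab1 in BAT, at 2.04.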

How the data were processed

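Affymetrix Expression Console, RMA and affy 1.36.1 are listed in the submitters' processing notes. Which step used which, and with what settings, is not given in the sources used here. The values used are those the authors deposited, on a log2 scale, with 1 for each probe set on each array. Of 25206 probe sets, each identified by an Entrez number, 23185 had a gene symbol through the platform annotation. Arrays carry no read depth, so their number limits the precision.

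All probe sets were fitted in 1 model with a mean per group (lmFit, contrasts.fit, eBayes; limma 3.58.1, R 4.3.3; 10 residual degrees of freedom). Each of 10 comparisons was tested on both sides, with p-values adjusted by Benjamini-Hochberg over the whole table and a threshold of 0.05. RS (2 arrays) shares the pooled spread. The script was tested on simulated data.

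Members and lists were chosen with earlier results of these data known. All 7 members are given; surrounding genes are named where they passed in a comparison against WAT, or with their value, and Acat2, the 1 of 32 listed without a symbol, is not. Genes most like Pank1 are the 4 highest Pearson correlations among genes with a mean above 5. Alternatives were quantile normalization, median centring, a filter (mean above 4), trended robust eBayes, fits of 2 groups, a replicate block and leaving out arrays.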

Additional observations from a re-analysis of the deposited data

How the results depend on the processing

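In sum, 886 of the alternative member values moved by less than the spread between replicates and 24 by more, and 0 called values changed sign. This measure does not count lost calls. The Pank1 call was lost in 7 of 13 alternatives in CL against RG and 6 of 13 in CL against BAT. That of Ppcs in CL against WAT was lost in 7 of 14. Calls of Pank1 in RS against WAT and against CL were lost as well. Values not called changed sign in some alternatives, as for Pank2 and Pank4 in BAT. Of the values of surrounding genes, 3748 kept their side of the threshold, 191 lost a call and 51 gained one. Of values called before or after the change, 0 changed sign. A value called in neither could change sign and still count among the 3748. The cause of these changes was not tested. Quantile normalization called 6220 probe sets in BAT against WAT (11096 in the deposited scale), 3152 in CL (6350) and 2455 in RS (5387). Fewer probe sets were tested with the filter, which called 4397 in BAT, 2767 in CL and 2469 in RS. The RS count was 3433 with only its arrays and WAT fitted and 2438 without both WAT 4 and RS 3. The share of calls that were higher was 62.6% in BAT, 60.4% in CL and 51.7% in RS, against 51.5%, 50.7% and 39.2% with arrays centred and 25.5%, 30.4% and 14.8% among the filtered probe sets.

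Deviations from the group means were negatively correlated in all 24 pairs of same-numbered arrays of different groups (-0.88 to -0.05). What lies behind these negative values was not tested. Because 0 of the 24 were positive and 0 of 15 arrays correlated best with their own number, the numbers were not taken as pairs. With the replicate block, which leaves 7 residual degrees of freedom, limma called 7286 probe sets in BAT, 2461 in CL, 2052 in RS and 1071 in RG (2882 without it). In the replicate block it called 8 surrounding genes in BAT, 3 in CL, 0 in RS (13 at an unadjusted p under 0.05) and 1 in RG, and among members 1 in CL and 0 in RS (2 at an unadjusted p under 0.05).

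Among surrounding genes the RS count was also 0 with only RS and WAT fitted (limma, 10 at an unadjusted p under 0.05) and 1 without both WAT 4 and RS 3, which gave 3 in RG. Among members, centring gave 1 in CL, and quantile normalization and the filter each gave 2 in RG. The RS member count was 0 with only RS and WAT fitted and 0 without both WAT 4 and RS 3 (limma, 3 and 1 at an unadjusted p under 0.05).

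Leaving out 1 array at a time gave 8585 (without BAT 1) to 10173 probe sets in BAT, 3560 (without CL 4) to 5519 in CL, 2951 (without RS 4) to 5008 in RS and 1044 (without RG 4) to 2783 in RG. It gave 9 to 17 surrounding genes in BAT, 3 to 8 in CL, 0 to 9 in RS and 0 to 9 in RG, and 2 to 3 members in BAT, 1 to 2 in CL, 0 to 1 in RS (1 at an unadjusted p under 0.05 without RS 3 and 3 without RS 4, by limma) and 1 to 2 in RG.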
